A study of Mus musculus with 5 samples.

Results

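The organic ion carriers of the Slc22 and Slco families and the ATP-binding cassette (ABC) transporters were followed in mouse liver at stage E18.5, late gestation. The members were the genes whose symbol begins with Slc22a, Slco or Abca to Abcg followed by a number, without pseudogenes and without 10 transporters of bile acids, bile lipids and sterols. That rule held 63 of the 23022 genes listed, in 9 families. The 4N group had 3 livers from Hhex knockout embryos that had received tetraploid embryonic stem cells carrying td-Tomato as blastocysts, and the WT group had 2 livers from normal embryos. Hhex encodes a homeobox factor needed for liver formation, and an embryo that lacks it leaves room for donor cells to build the organ. Blood, vessel and connective tissue cells of such a liver can come from host or donor, the labels give no share of donor cells, and they do not name the line or the number of clones injected. Chimeric embryos, ploidy, the injection and the genotype differ together between the groups and cannot be told apart. Hhex itself had a mean of 5894 normalized counts and a log2 fold change of 0.55 (standard error 0.33, adjusted p = 0.286) according to the authors' deposited table, a value that does not check the labels, since the knockout was made in the host embryos.

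Slc22 proteins transport organic cations, organic anions and carnitine, and in the liver they stand mainly in the sinusoidal membrane that faces the blood. Slco proteins carry larger amphipathic anions such as hormone conjugates, prostaglandins and drugs. ABC proteins spend ATP to move lipids, peptides, heme precursors, fatty acyl-CoA and conjugated drugs across the plasma membrane or the membranes of peroxisomes, mitochondria and lysosomes, and the Abce and Abcf members have no membrane part and act on ribosomes instead.

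The authors' deposited table gives each gene a mean normalized count over the 5 libraries, a log2 fold change with its standard error, a Wald p-value and a Benjamini-Hochberg adjusted p-value, and a positive fold change is higher in 4N. The 2 group means used here were computed from the mean and the fold change, values of single libraries and their depth were not analysed here, and no standard deviation within a group can be given. Nothing in the labels says that the livers of a group came from separate litters, so the p-values measure the spread between these 5 samples, which may be partly technical. A gene is called higher or lower where the adjusted p is under 0.05. In the tissue as a whole, the 11 hepatocyte markers measured summed to 12080764 normalized counts in 4N and 12612386 in WT, with 0 called higher and 3 lower (Apoa1, Apoa2 and Apob), a median log2 fold change of -0.34 and 8 of the 11 below 0. These sums rest mostly on Alb and Trf, with means of 6200278 and 2930338 over all libraries, and neither gene was called. Of 32 secreted plasma proteins 17 were called lower and 0 higher. The 18 erythroid markers summed to 3623041 in 4N and 1109611 in WT, with 17 called higher and a median log2 fold change of 1.58; the least abundant of them had a mean of 2412. Of the other marker lists, stellate and mesenchymal markers had 4 of 14 higher and 2 lower, cholangiocyte markers 0 of 10 higher and 1 lower, mast cell and granulocyte markers 1 of 13 higher and 2 lower, kidney markers 1 of 5 higher, and intestine and pancreas markers 1 of 6 higher and 1 lower. Fewer cells of a type and less RNA per cell cannot be told apart in such bulk samples.

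Transporter genes moved in both directions. Of the 63 members 20 were called, a share of 31.7%, against 15.3% of all genes. In 4N livers 11 members were higher, where 7.94% of all genes were, and 9 were lower, where 7.41% of all genes were. Split by abundance, among the 31 members whose mean reached 1000 normalized counts 8 were higher and 3 lower, and among the 32 members below that mean 3 were higher and 6 lower, and the difference between these classes was not tested. At means of 1000 or more the background was 22.2% of genes called, 11.9% higher and 10.3% lower, which applies to the 31 members only. A matching share for genes below that mean was not computed here. Over all 23022 genes 3533 were called (1828 higher, 1705 lower), of which 1921 (1028 higher, 893 lower) were among the 8656 genes with means of 1000 or more. The share among genes below that mean is therefore under the 15.3% over all genes. The median log2 fold change of the members was 0.12, beside -0.00 over all genes. Calls that went up were Slc22a4, Slco2a1, Slco2b1, Slco3a1, Abca7, Abca8b, Abcb9, Abcb10, Abcc5, Abcg1 and Abcg4. Calls that went down included Slc22a7, Slc22a18, Slc22a27, Slc22a30, Abcb1a, Abcc12, Abcd2 and Abcd3. Recentring on secreted plasma proteins added 0.65 to every log2 fold change, which gave 25 members higher and 6 lower, kept 17 of the 20 calls and turned 15 uncalled members from below to above 0. Counts over all genes and members rest on a normal reference for the Wald statistic: with a t reference on 3 residual degrees of freedom 0 genes were called, while 15 members (6 higher, 9 lower) and 2513 genes had an unadjusted p under 0.05.

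**Figure D1:**
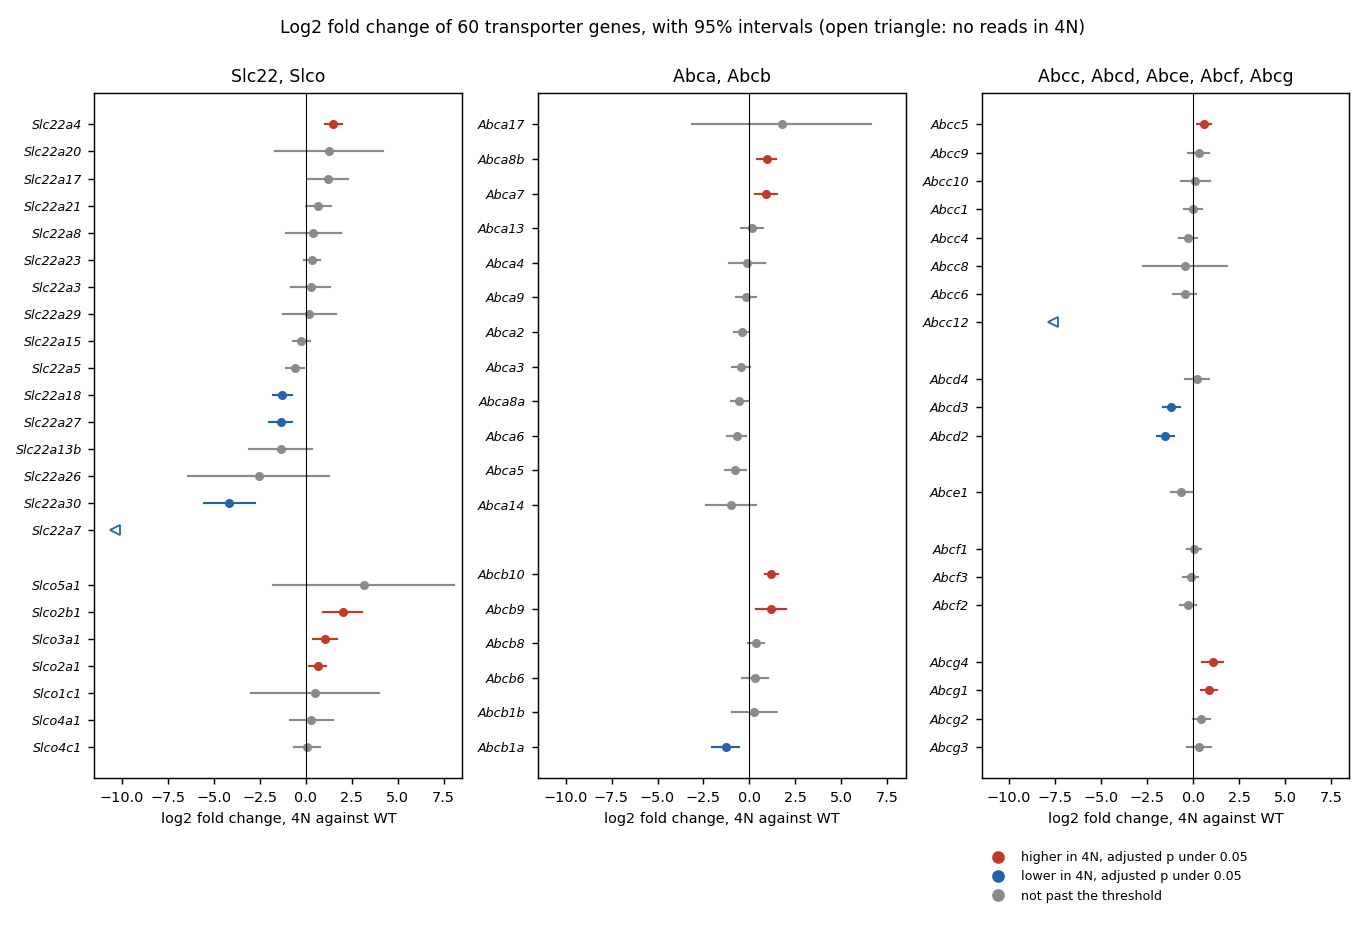
Log2 fold change, 4N against WT, of 60 members in 3 panels of families (points) with 95% intervals from the standard error (bars), coloured by call, with open triangles for the 2 genes without reads in 4N. The 7 Slco and 4 Abcg members lie right of 0. Long bars belong mostly to genes of low mean, such as Slco5a1, but Slc22a26 has a longer bar than Slc22a29, whose mean is lower.

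Slc22a7, the organic anion carrier typical of the adult hepatocyte's sinusoidal face, was without reads in 4N livers. Slc22a7 had a WT mean of about 238 normalized counts and, from its fitted mean of 0.178, no reads in any 4N library, so no fold is given. The adjusted p of Slc22a7 in the authors' deposited table was 2.44e-13. Hepatocyte markers, whose sums of 12080764 in 4N and 12612386 in WT rest mostly on Alb and Trf, had 3 of 11 called lower. Their median was -0.34, and their part in the fall of Slc22a7 was not tested. Slc22a3, a low-affinity cation and monoamine carrier on chromosome 17, had 121 normalized counts in WT and 144 in 4N, with a log2 fold change of 0.25 (standard error 0.53, adjusted p = 0.84) according to the authors' deposited table. In the Igf2r domain that holds Slc22a3, Igf2r, the receptor that clears IGF2, was called higher with a log2 fold change of 1.56 and Plg, the plasminogen gene, lower with -0.60 in the authors' deposited table. Airn and Mas1, the other 2 neighbours measured, were not called, and so 1 of 4 was higher and 1 lower.

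A second group of organic anion carriers stands in 1 cluster on chromosome 19, where rodents hold many gene copies. Slc22a30 fell from a WT mean of 211 normalized counts to 11.7 in 4N. The authors' deposited table put its log2 fold change at -4.17 (standard error 0.70, adjusted p = 1.27e-07), or 18.0-fold lower with a 95% interval of 6.93 to 47.0. Slc22a27 fell from 610 to 238 normalized counts. Slc22a27 had a log2 fold change of -1.36 (standard error 0.32, adjusted p = 3.3e-04) according to the authors' deposited table, and it missed the threshold after recentring on secreted plasma proteins (adjusted p = 0.067). Of the other 3 members of the cluster, none was called. Slc22a26 had 158 normalized counts in WT and 26.7 in 4N, but its log2 fold change of -2.56 had a standard error of 1.95 (adjusted p = 0.45) according to the authors' deposited table. Slc22a29, with a log2 fold change of 0.19, and Slc22a8, the anion carrier best known from the kidney tubule, with 0.39, were uncalled as well in the authors' deposited table. Copies in this cluster share sequence: 34.2% of the 50-base words of the Slc22a30 transcripts occur in other genes, mostly Slc22a28, and 29.9% of those of Slc22a27 occur in others, mostly Slc22a29. The values of Slc22a27, Slc22a29 and Slc22a30 are therefore uncertain to the extent that reads were split or dropped between copies. The symbol Slc22a28 is not among the genes listed.

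Of the 3 carriers around carnitine, 1 rose and 2 did not pass the test. Carnitine ferries fatty acids into mitochondria, Slc22a5 is its high-affinity carrier, and Slc22a4 next to it on chromosome 11 prefers ergothioneine, an antioxidant from the diet. The group mean of Slc22a4 was 1032 normalized counts in WT and 2896 in 4N, or 2.80-fold higher with a 95% interval of 2.03 to 3.88. The authors' deposited table gave it a log2 fold change of 1.49 (standard error 0.24, adjusted p = 2.26e-08). Slc22a5 had 978 normalized counts in WT and 649 in 4N, with a log2 fold change of -0.59 (standard error 0.26, adjusted p = 0.117) according to the authors' deposited table. Slc22a21, a rodent copy of the carnitine carrier that lies between them, had 154 normalized counts in WT and 247 in 4N, and a log2 fold change of 0.68 (standard error 0.35, adjusted p = 0.205) according to the authors' deposited table. Slc22a5 and Slc22a21 share 26.3% and 22% of their 50-base words, nearly all with each other, so their opposite signs are uncertain. Enzymes and carriers around them were low: of 8 genes of carnitine synthesis and the carnitine shuttle 6 were called lower and 0 higher, with a median log2 fold change of -1.03. Among these Crot, which makes acylcarnitines in peroxisomes, had a log2 fold change of -2.46, Cpt1a, the gate of mitochondrial import, -2.33, Bbox1, the last enzyme of carnitine synthesis, -1.54, and Slc25a20, the inner membrane exchanger, -1.07 in the authors' deposited table. Red cell markers moved the same way as Slc22a4, at a summed 3623041 normalized counts in 4N against 1109611 in WT, and their part in its rise was not tested.

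The promoter window of Slc22a4 is shown as that of the 1 gene of its chromosome 11 cluster that was called. It covers 300 bases, most of them before the transcription start, as RefSeq gives them for GRCm38.p6 (another build than the authors' GRCm39), at chr11:54028055-54028354 on the minus strand, 5′ to 3′, with the E-box word CACGTG in capitals. That word reads the same on both strands and occurs in 7.24% of all 27025 promoter windows of this length.
Slc22a4: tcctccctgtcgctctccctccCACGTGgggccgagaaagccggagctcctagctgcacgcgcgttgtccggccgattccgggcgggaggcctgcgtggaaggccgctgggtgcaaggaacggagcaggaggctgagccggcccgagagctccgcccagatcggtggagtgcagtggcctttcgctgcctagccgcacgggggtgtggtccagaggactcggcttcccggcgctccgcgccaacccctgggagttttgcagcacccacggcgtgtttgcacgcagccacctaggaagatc

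Slc22a18 was the fifth member of its family called lower. It encodes a carrier of unclear substrate in the Kcnq1 imprinted domain on chromosome 7, expressed mainly from the maternal copy. Its group mean was 2645 normalized counts in WT and 1082 in 4N, 2.44-fold lower with a 95% interval of 1.72 to 3.47. The log2 fold change was -1.29 (standard error 0.26, adjusted p = 1.6e-05) according to the authors' deposited table. Cdkn1c, the growth-inhibiting gene of the same domain, moved the other way, with a log2 fold change of 3.82 (standard error 0.30, adjusted p = 3.5e-35) according to the authors' deposited table. It was the only 1 of the 10 measured neighbours that was called, and the median of the 10 was 0.13. The orphan carrier Slc22a23 had 9419 normalized counts in WT and 11826 in 4N, and a log2 fold change of 0.33 (standard error 0.21, adjusted p = 0.34) according to the authors' deposited table. Slc22a15 had a log2 fold change of -0.24, and Slc22a17, a receptor for lipocalin-2, had 1.2 with a standard error of 0.56 (adjusted p = 0.146) according to the authors' deposited table. Slc22a13b and Slc22a20, with means under 100, were uncalled, which makes 1 higher, 5 lower and 11 uncalled genes in the family of 17, with a median log2 fold change of -0.24. That median turned to 0.41 when fold changes were recentred on secreted plasma proteins, whose own median was -0.65.

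In the Slco family 3 of 7 genes were called higher and 0 lower, and the log2 fold change was above 0 in all 7, with a median of 0.63. Slco2a1, which takes up prostaglandins for breakdown and is strong in endothelium, had 3442 normalized counts in WT and 5333 in 4N. Its log2 fold change was 0.63 (standard error 0.23, adjusted p = 0.042) according to the authors' deposited table, a call that was lost (adjusted p = 0.071) when fold changes were recentred on genes whose mean reached 10000. Endothelial markers gave 0 of 12 called higher and 1 lower, and summed to 50673 normalized counts in 4N and 52130 in WT. Slco2b1, a carrier of steroid sulfates, had 34.9 normalized counts in WT and 140 in 4N, 4.01-fold higher with a 95% interval of 1.92 to 8.34. The authors' deposited table gave Slco2b1 a log2 fold change of 2.00 (standard error 0.54, adjusted p = 0.0026), the largest of any member called higher. Slco3a1, which also carries prostaglandins, went from 232 to 482 normalized counts, a log2 fold change of 1.05 (standard error 0.33, adjusted p = 0.014) according to the authors' deposited table. Slco4a1, a thyroid hormone carrier, had 0.30 and Slco4c1, known from the kidney tubule, 0.06 as log2 fold change in the authors' deposited table. Slco1c1 and Slco5a1 had means of 10.6 and 6.13 normalized counts over all libraries in the authors' deposited table, and their 95% intervals spanned 0. The 3 liver carriers of the Slco1 subfamily were outside the rule and lower: Slco1b2 with a log2 fold change of -4.23 and Slco1a1 with -4.28 in the authors' deposited table, and Slco1a4 without reads in 4N.

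**Figure D2:**
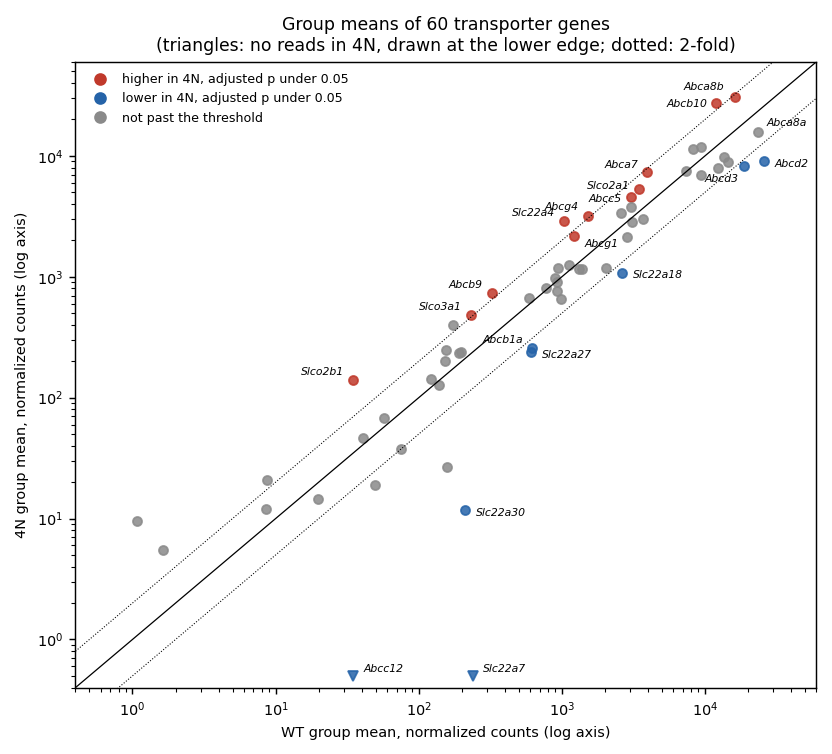
Group means of 60 members in normalized counts, WT on the horizontal and 4N on the vertical log axis, with a solid line of equality, dotted lines at a 2-fold difference and triangles for the genes without reads in 4N. Slc22a30 lies far below the lines, Abcb10 lies above the upper dotted line, and Abca8b lies between that line and the line of equality.

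Among lipid transporters of the Abca family, 2 of 12 members were called higher and 0 lower. This share of 16.7% called is close to the 15.3% of all genes. Means reached 1000 in 9 of the 12, and at such means 22.2% of genes were called. Abca1, outside the rule, was called higher with a log2 fold change of 0.87 in the authors' deposited table. Abca8b, a liver and heart transporter, had 16088 normalized counts in WT and 30614 in 4N, 1.90-fold higher with a 95% interval of 1.32 to 2.74. In the authors' deposited table Abca8b had a log2 fold change of 0.93 (standard error 0.27, adjusted p = 0.0060). Abca7, which moves phospholipids to apolipoproteins and is active in phagocytes, had 3957 normalized counts in WT and 7425 in 4N. For Abca7 the log2 fold change was 0.91 (standard error 0.30, adjusted p = 0.020) according to the authors' deposited table. Macrophage markers, of which 5 of 12 were called higher and 1 lower, summed to 48011 normalized counts in 4N and 35500 in WT, and their part in the value of Abca7 was not tested.

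Neighbours of Abca8b on chromosome 11 had the opposite sign. Abca8a, its closest copy, had 23300 normalized counts in WT and 15834 in 4N, with a log2 fold change of -0.56 (standard error 0.23, adjusted p = 0.090) according to the authors' deposited table. Abca6 had 14538 normalized counts in WT and 8922 in 4N, with a log2 fold change of -0.70 (standard error 0.28, adjusted p = 0.062) according to the authors' deposited table. Abca5 had a log2 fold change of -0.77 (adjusted p = 0.060) and Abca9 of -0.18 (adjusted p = 0.76) according to the authors' deposited table. Abca5 and Abca6 passed the threshold once genes with a mean under 50 were left out, or once fold changes were recentred on genes whose mean reached 10000. All 4 lay below 0 and Abca8b above it, but none of the 4 was called, a difference between Abca8b and its neighbours was not tested, and Abca8a and Abca9 were above 0 after recentring on secreted plasma proteins. Abca8a and Abca8b share 1.64% and 1.42% of their 50-base words.

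The promoter windows of Abca8a and Abca8b are set side by side as the pair of copies with opposite signs. They come from RefSeq for GRCm38.p6, both from the minus strand, at chr11:110095888-110096187 for Abca8a and chr11:109995796-109996095 for Abca8b. Capitals mark the E-box word CACGTG, found in 7.24% of all windows, and in Abca8a also the GATA word TGATAG, found on either strand in 7.39% of windows. Of the 300 bases in each window 239 were aligned to a base of the other, and 173 of these (72.4%) were identical. Bases opposite gaps were left out and no unrelated windows were aligned, so this share does not show that the windows are alike. The E-box word stands at different places in them, from base 115 of the Abca8a window and from base 269 of the Abca8b window.
Abca8a: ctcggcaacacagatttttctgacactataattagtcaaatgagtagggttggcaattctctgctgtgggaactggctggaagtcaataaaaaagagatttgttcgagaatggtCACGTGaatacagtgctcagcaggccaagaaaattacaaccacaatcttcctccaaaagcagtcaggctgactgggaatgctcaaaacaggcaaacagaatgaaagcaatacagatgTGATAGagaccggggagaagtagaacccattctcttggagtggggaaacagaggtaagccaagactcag
Abca8b: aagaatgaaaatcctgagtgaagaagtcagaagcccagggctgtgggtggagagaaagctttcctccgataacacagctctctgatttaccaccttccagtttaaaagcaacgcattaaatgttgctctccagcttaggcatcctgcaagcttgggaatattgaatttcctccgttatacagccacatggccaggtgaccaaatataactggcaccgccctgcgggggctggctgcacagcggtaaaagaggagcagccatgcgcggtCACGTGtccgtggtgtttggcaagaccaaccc

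The other Abca genes were not called. Abca3, which loads surfactant lipid into lamellar bodies of the lung, was abundant in these livers, with 13506 normalized counts in WT and 9704 in 4N. Abca3 had a log2 fold change of -0.48 (standard error 0.25, adjusted p = 0.213) according to the authors' deposited table. Of 6 lung partners of Abca3 2 were called lower and 0 higher: the surfactant proteins Sftpa1, with a log2 fold change of -2.23, and Sftpc, with -5.75 in the authors' deposited table, the latter at a mean of 33.1 normalized counts in WT and 0.613 in 4N. Abca2, an endolysosomal lipid transporter, had a log2 fold change of -0.42, Abca13 of 0.16 and Abca4, the retinal transporter, of -0.12 in the authors' deposited table. Abca14 and Abca17 had means under 100. The median of the family was -0.30, and 0.36 after recentring on secreted plasma proteins.

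Abcb10 was the mitochondrial transporter of the Abcb family that rose. Abcb10, an inner membrane protein that developing red cells need for heme synthesis, had 11946 normalized counts in WT and 27298 in 4N, 2.29-fold higher with a 95% interval of 1.78 to 2.94. The authors' deposited table gave Abcb10 a log2 fold change of 1.19 (standard error 0.19, adjusted p = 6.1e-09). Abcb8, linked to mitochondrial iron export, had 2607 normalized counts in WT and 3371 in 4N, and a log2 fold change of 0.37 (standard error 0.22, adjusted p = 0.286) according to the authors' deposited table. Abcb6, a porphyrin transporter, had only 196 normalized counts in WT and 240 in 4N, and a log2 fold change of 0.29 (standard error 0.36, adjusted p = 0.69) according to the authors' deposited table. Its level is uncertain, because 50.01% of the 50-base words of its transcripts also belong to Gm29253, a symbol not among the genes listed. Of 18 partners in heme synthesis 9 were called higher and 0 lower, with a median log2 fold change of 0.85. They included Alad, the second enzyme of the pathway, with a log2 fold change of 2.22, Alas2, the erythroid first enzyme, with 1.82, and Slc25a37, the mitochondrial iron importer that works with Abcb10, with 1.53 in the authors' deposited table. Alas1, the first enzyme's form in other tissues, had -0.31 and was not called in the authors' deposited table. Erythroid markers, 17 of 18 called higher, had a larger median log2 fold change, 1.58, than the 1.19 of Abcb10 in the authors' deposited table, and their part in its rise was not tested.

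The promoter window of Abcb10 is shown as that of the member called higher with the most normalized counts per kb of exon. It stands at chr8:123983073-123983372 of GRCm38.p6 on the minus strand, from RefSeq. Capitals mark the NRF1 word GCATGCGC, which was found once on each strand with overlap and which 2.80% of all windows hold on either strand.
Abcb10: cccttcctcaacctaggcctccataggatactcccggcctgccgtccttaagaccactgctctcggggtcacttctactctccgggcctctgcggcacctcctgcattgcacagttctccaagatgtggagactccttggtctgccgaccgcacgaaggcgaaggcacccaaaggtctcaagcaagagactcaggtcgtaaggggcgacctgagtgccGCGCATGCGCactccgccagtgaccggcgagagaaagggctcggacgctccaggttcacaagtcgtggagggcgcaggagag

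Drug and peptide transporters of the same family split. Abcb1a, a multidrug efflux pump of barrier endothelium and other cells, fell from 621 normalized counts in WT to 255 in 4N, 2.43-fold lower with a 95% interval of 1.46 to 4.06. In the authors' deposited table its log2 fold change was -1.28 (standard error 0.38, adjusted p = 0.0071), and the call was lost after recentring on secreted plasma proteins (adjusted p = 0.184). Its copy Abcb1b had 57.0 normalized counts in WT and 68.5 in 4N, with a log2 fold change of 0.26 (standard error 0.62, adjusted p = 0.86) according to the authors' deposited table. Abcb1a shares 17.6% of its 50-base words with other genes and Abcb1b 11.6%, mostly with each other. Abcb9, a lysosomal peptide transporter, rose from 322 to 734 normalized counts, a log2 fold change of 1.19 (standard error 0.41, adjusted p = 0.031) according to the authors' deposited table. Over the 7 Abcb members 2 were higher and 1 lower, with a median log2 fold change of 0.29. Outside the rule, Abcb11 and Abcb4 were both called lower, with -1.05 and -0.84 in the authors' deposited table. Of 3 ABC genes that carry other names, the antigen peptide transporter genes Tap1 and Tap2 and the chloride channel gene Cftr, 0 were called in either direction.

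In the Abcc family, the multidrug resistance proteins and their relatives, 1 of 8 members was higher and 1 lower. Outside the rule, Abcc2 was called lower with a log2 fold change of -0.75 and Abcc3 was uncalled with -0.17 in the authors' deposited table. Abcc5, which exports cyclic nucleotides and other organic anions, had 3023 normalized counts in WT and 4588 in 4N, 1.52-fold higher with a 95% interval of 1.15 to 2.00. For Abcc5 the log2 fold change was 0.60 (standard error 0.20, adjusted p = 0.024) according to the authors' deposited table. Abcc12 was barely present: its WT mean was about 34.6 normalized counts, no 4N library had reads, and the adjusted p in the authors' deposited table was 0.0018. Abcc2, outside the rule, had 25683 normalized counts in WT and 15306 in 4N, and its level per kb of exon was not computed here. Through Abcc6 hepatocytes release ATP, and its loss in humans leads to ectopic mineral deposits. Among the 8 Abcc members Abcc6 had the most normalized counts per kb of exon in both groups. It had 9449 normalized counts in WT and 6900 in 4N, and a log2 fold change of -0.45 (standard error 0.32, adjusted p = 0.41) according to the authors' deposited table. Abcc1, the exporter of glutathione conjugates, had 919 normalized counts in WT and 906 in 4N, and its log2 fold change was -0.02 (standard error 0.25, adjusted p = 0.98) according to the authors' deposited table. The 95% interval of Abcc1 reached from 1.42-fold lower to 1.38-fold higher. Abcc4, an exporter of cyclic AMP and bile acids on the blood side, had 917 normalized counts in WT and 764 in 4N, with a log2 fold change of -0.26 (standard error 0.25, adjusted p = 0.58) according to the authors' deposited table. Abcc9, the sulfonylurea receptor of vascular potassium channels, had 3025 normalized counts in WT and 3771 in 4N, with a log2 fold change of 0.32 (standard error 0.29, adjusted p = 0.55) according to the authors' deposited table. Its channel partner Kcnj8 and the pancreatic form Kcnj11 gave 0 of 2 called. Abcc10 had a log2 fold change of 0.12 (adjusted p = 0.91) according to the authors' deposited table, and Abcc8, the pancreatic sulfonylurea receptor, had a mean of 16.5 there. The family's median was -0.14, and 0.51 after recentring on secreted plasma proteins.

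Of the 4 genes of the Abcd family, which serve peroxisomes and lysosomes, 2 fell and 2 were not called. Abcd2, which brings very long and unsaturated acyl-CoA into peroxisomes, had 25639 normalized counts in WT and 9038 in 4N, 2.84-fold lower with a 95% interval of 2.04 to 3.95. The authors' deposited table gave Abcd2 a log2 fold change of -1.50 (standard error 0.24, adjusted p = 2.8e-08). Abcd3, the importer of branched-chain and dicarboxylic acyl-CoA and of bile acid precursors, had 18602 normalized counts in WT and 8235 in 4N, 2.26-fold lower with a 95% interval of 1.63 to 3.13. Its log2 fold change was -1.18 (standard error 0.24, adjusted p = 2.56e-05) according to the authors' deposited table, and it fell short of the threshold after recentring on secreted plasma proteins (adjusted p = 0.074). Abcd4, which serves lysosomal cobalamin and not peroxisomes, had 585 normalized counts in WT and 671 in 4N, and a log2 fold change of 0.20 (standard error 0.33, adjusted p = 0.79) according to the authors' deposited table. Among 16 genes of peroxisome biogenesis 5 were called lower and 1 higher, with a median log2 fold change of -0.39. Genes called lower there included Pex7, a receptor for import, with a log2 fold change of -1.06, Pex16, a membrane biogenesis factor, with -1.37, and Pex11g, which acts in division, with -1.21 in the authors' deposited table. The median of the 4 Abcd genes was -0.49, and 0.17 after recentring on secreted plasma proteins. Hepatocyte markers had 3 of 11 called lower and a median log2 fold change of -0.34, and their part in the fall of Abcd2 and Abcd3 was not tested.

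The promoter window of Abcd3 is shown because the HNF4 word CAAAGTCCA, marked in capitals, was found in no other member's window and in 0.477% of all windows on either strand. It is the first of the 2 starts that RefSeq lists for the gene in GRCm38.p6, at chr3:121815253-121815552 on the minus strand. Hnf4a itself had a log2 fold change of -0.34 and was not called in the authors' deposited table.
Abcd3: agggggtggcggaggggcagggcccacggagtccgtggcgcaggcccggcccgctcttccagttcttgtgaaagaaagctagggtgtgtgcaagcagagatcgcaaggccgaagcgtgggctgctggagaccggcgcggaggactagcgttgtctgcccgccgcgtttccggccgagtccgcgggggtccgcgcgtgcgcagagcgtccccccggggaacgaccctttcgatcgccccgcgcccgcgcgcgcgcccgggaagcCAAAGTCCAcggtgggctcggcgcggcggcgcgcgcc

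The soluble ABC proteins that act on ribosomes gave 0 calls in either direction among 4 genes. Abce1, which splits ribosomes after termination, had 12401 normalized counts in WT and 7983 in 4N, with a log2 fold change of -0.64 (standard error 0.29, adjusted p = 0.127) according to the authors' deposited table. Abcf1, a partner of the initiation factor eIF2, had 7371 normalized counts in WT and 7539 in 4N, and a log2 fold change of 0.03 (standard error 0.20, adjusted p = 0.95) according to the authors' deposited table. The 95% interval of Abcf1 reached from 1.28-fold lower to 1.33-fold higher. Abcf2 had a log2 fold change of -0.28 (standard error 0.22, adjusted p = 0.47) and Abcf3 of -0.13 (standard error 0.20, adjusted p = 0.77) according to the authors' deposited table. Abce1, Abcf2 and Abcf3 were above 0 after recentring on secreted plasma proteins, and Abcf1 was below 0 after recentring on genes whose mean reached 10000. Of 11 partners in ribosome recycling and translation control 1 was called higher, Gcn1, the activator of the amino acid sensing kinase GCN2, with a log2 fold change of 0.58 in the authors' deposited table.

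Of the 4 Abcg members 2 were called higher, 0 were lower and all 4 lay above 0, with a median of 0.66. This holds for the members only. Outside the rule, Abcg8 was called lower with a log2 fold change of -2.02 and Abcg5 was uncalled with -2.52 in the authors' deposited table. Abcg1, which passes cholesterol to high-density lipoprotein and is strong in macrophages, had 1206 normalized counts in WT and 2183 in 4N, 1.81-fold higher with a 95% interval of 1.34 to 2.44. Its log2 fold change was 0.86 (standard error 0.22, adjusted p = 0.0013) according to the authors' deposited table. Abcg4, its relative in brain and blood cell precursors, had 1524 normalized counts in WT and 3188 in 4N, 2.09-fold higher with a 95% interval of 1.40 to 3.12. In the authors' deposited table Abcg4 had a log2 fold change of 1.07 (standard error 0.29, adjusted p = 0.0036). Abcg2, an exporter of drugs, urate and porphyrins, had 8296 normalized counts in WT and 11383 in 4N, with a log2 fold change of 0.46 (standard error 0.24, adjusted p = 0.21) according to the authors' deposited table. Abcg3, a rodent gene, had a log2 fold change of 0.33 (adjusted p = 0.62) according to the authors' deposited table. Macrophage markers had 5 of 12 called higher and 1 lower, and summed to 48011 normalized counts in 4N and 35500 in WT. Erythroid markers had 17 of 18 called higher, with a median of 1.58, and summed to 3623041 in 4N and 1109611 in WT. Megakaryocyte markers gave 0 of 9 called in either direction, and the part of these cell types in the Abcg values was not tested.

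Levels can be compared between genes only per length, so group means were divided by the length of all annotated exons, which GENCODE M21 gave for 62 members on the older build GRCm38. In WT livers Abcd2 ranked first, with 4312 normalized counts per kb of exon, followed by Abca8a with 3715 and Abcd3 with 2821. In 4N livers the first place was held by Abcb10, with 6340 per kb, followed by Abca8b with 4124 and Abca8a with 2524. Abcd2 stood at rank 7 in 4N with 1520 per kb and Abcd3 at rank 10 with 1249. The WT levels of Abcd3 and Abcb10, 2821 and 2774 per kb, were close, and their order there is not resolved. No error of a difference between genes within a group was available, so the other ranks describe group means only. Together the 63 members held 0.285% of the summed means of all genes.

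**Figure D3:**
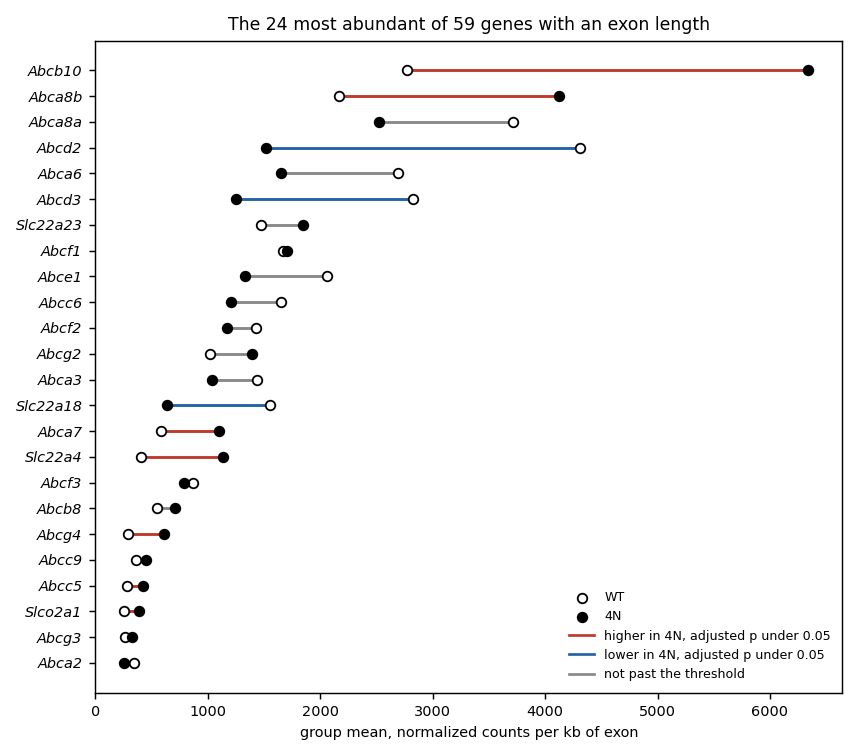
Group means per kb of exon of the 24 most abundant of 59 members, on a linear axis, with open circles for WT, filled circles for 4N and a line coloured by call. Abcb10 and Abca8b extend to the right in 4N and Abcd2 and Abcd3 to the left.

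The standard errors also imply a spread between libraries, as the authors' fit estimated it. From each gene's mean, fold change and standard error a coefficient of variation (CV) between libraries was derived, taken as equal in both groups. This CV is not a spread measured on single libraries. Whether the fit drew it toward genes of like mean is not known here. For the 31 members whose mean reached 1000 it lay between 14% (Abcb10) and 25.5% (Abcg3). Slc22a26 had 148%, above 98.8% of the genes whose mean lies within 2-fold of its own, and Slc22a8 had 57.7%, above 97.0% of its like. Abcc6, for its high mean, had 24.6%, above 96.0% of its like. Which library is high or low for these 3 genes was not analysed here, and none of the 3 was called.

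**Figure D4:**
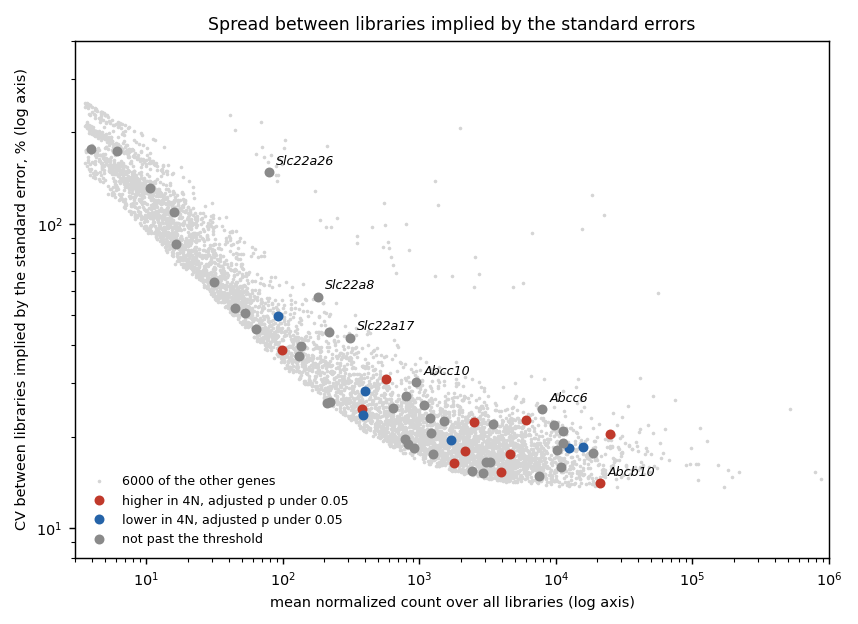
CV between libraries implied by the standard error, in percent, against the mean normalized count over all libraries, both on log axes, for 58 members (coloured by call) and a random sample of other genes (grey). Slc22a26 at 148% lies above the band of genes with like means, and Abcb10 lies at its lower edge.

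Related carriers outside the rule were mostly lower. Of the 10 bile and sterol transporters left out 7 were called lower and 1 higher, with a median log2 fold change of -1.53, beside 0.12 for the 63 members. The gene called higher was Abca1, the cholesterol exporter, with a log2 fold change of 0.87, while Abcb11, the bile salt pump, had -1.05, Abcb4, the phosphatidylcholine floppase next to Abcb1a, -0.84, Abcc2 -0.75 and Abcg8 -2.02 in the authors' deposited table. Abcg5 had -2.52 and Abcc3 -0.17, both uncalled in the authors' deposited table. Of 18 other organic ion carriers 11 were called lower and 2 higher, with a median of -1.01. Slc17a2, a phosphate and anion carrier, had a log2 fold change of -2.48, Slc10a1, the bile acid uptake carrier, -1.81 and Slc17a1 -3.57, while Slc16a10, a carrier of aromatic amino acids, had 1.52 in the authors' deposited table. Among 14 receptors that sense xenobiotics and lipids 3 were called lower and 1 higher, with a median of -0.44: Nr1i3 had a log2 fold change of -4.36, Nr1i2 of -0.94, Nr1h4 of -0.73 and Srebf2 of 0.83 in the authors' deposited table. Scaffold proteins that hold transporters in the membrane gave 0 of 7 called in either direction, with a median of 0.10. The difference between these lists and the members was not tested.

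**Figure D5:**
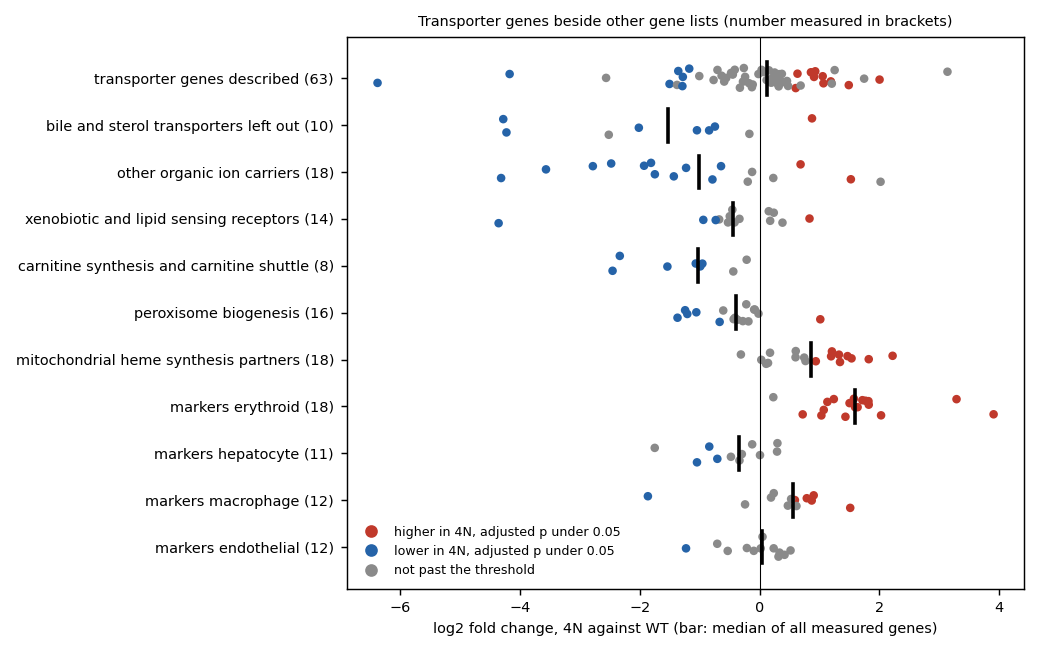
Log2 fold change, 4N against WT, of the genes of 11 lists (points, coloured by call, without genes that have no reads in 1 group), with the median of all measured genes of a list as a bar and their number in brackets. The members lie on both sides of 0, the carnitine genes and other organic ion carriers mostly below it and the erythroid markers above it.

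Promoter windows were at hand for 46 members. The GATA words searched on both strands were AGATAA, held by 11.4% of all 27025 windows, TGATAA, held by 9.26%, AGATAG, held by 9.02%, and TGATAG, held by 7.39%. At least 1 of these 4 was present in 14 members' windows (30.4%) and in 30.2% of all windows. The E-box word CACGTG was present in 6 of the 46 (13%), among them Slc22a4, Abca8a and Abca8b, beside 7.24% of all windows. The nuclear receptor word AGGTCA was in 4 members' windows (8.70%) and in 16.0% of all, and the HNF1 word GTTAAT in 2 (4.35%) and in 7.2%. The number of CpG pairs per window had a median of 20.0 in the 8 members called higher, 2.50 in the 6 called lower and 16.5 in the 32 not called, beside 7 in all windows, and the ranges of the first 2 overlapped. These counts describe letters in 1 window per gene and say nothing of which factor binds there.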

How the data were processed

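RNA of 5 mouse livers was sequenced from poly-T purified libraries primed with random hexamers, per the labels' protocols. The submitters' processing notes name the build GRCm39; which aligner and counter served is not given in the sources used here. A single comparison table was deposited. Its mean signal is a gene's mean normalized count over all libraries, per the file headers. Fold changes and their errors were deposited as log2 values. The deposited Wald score is the ratio of both. The authors also gave p-values with and without adjustment, which were checked here to be the 2-sided normal tail and its Benjamini-Hochberg adjustment over 23022 genes, with 0 missing.

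No model was refitted. Group means followed from mean and fold change with 3 and 2 libraries. A group mean under 0.2 marks a gene without reads there. The sign was settled on such genes: their standard error cannot be under 1.44 if the empty group has 2 libraries, and 12 of 247 genes with a negative sign were under it but 0 of 606 with a positive sign, so genes with a negative sign lack reads in 4N and a positive sign is higher there. The steps were tested on simulated data. The precision is that of the standard errors (median 0.24 on the log2 scale at a mean of at least 1000), since the depth per library is unknown and the summed means come to 78112274. The members and the 24 gene lists were chosen with earlier results of these data known. Values of 3 members are counted but not reported singly here. The text otherwise gives values mainly for members that are called or have a mean of at least 100. For the other lists it gives mainly up to 4 called genes, by smallest adjusted p. Among the exceptions are Slc22a26, Slc22a29 and Abcb1b, uncalled with means of 79.0, 44.2 and 63.9 normalized counts over all libraries. Alternatives were a mean of at least 50, a test against 1.5-fold, an adjusted p under 0.01, a t reference, recentring on abundant genes or on secreted plasma proteins, and leaving out genes without reads in a group. Exon lengths and 50-base words came from GENCODE M21, promoters from RefSeq, both on GRCm38. Tables were handled with pandas 2.3.3 and numpy 2.4.6 under Python 3.11.15, tails computed with scipy 1.17.1 and plots drawn with matplotlib 3.10.9.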

Additional observations from a re-analysis of the deposited data

How the results depend on the processing

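Against a 1.5-fold change 2 members were higher and 4 lower (521 and 588 of all genes), and the 6 were Slc22a7, Slc22a30, Slc22a4, Abcb10, Abcd2 and Abcc12. At an adjusted p under 0.01, 6 members and 1210 genes were higher. With a t reference on 3 degrees of freedom, 0 members and 0 genes were called in either direction, while 15 members had an unadjusted p under 0.05. Recentring on secreted plasma proteins gave 25 members higher, and 7774 genes higher and 803 lower. It turned 15 uncalled members to above 0 on the log2 scale, among them Abce1 to 0.019, Slc22a5 to 0.062, Abca8a to 0.10, Abca3 to 0.18, Abcc6 to 0.20, Abcc8 to 0.21, Abca2 to 0.24, Abcf2 to 0.38, Abcc4 to 0.39, Slc22a15 to 0.41, Abca9 to 0.48, Abcf3 to 0.52, Abca4 to 0.54 and Abcc1 to 0.63. Recentring on genes whose mean reached 10000 took Abcf1 to -0.020, lost Slco2a1 and added Abca5 and Abca6. These shifts are the subtraction of a constant; every other count over all members or all genes by direction stayed within 1.5 times its value. Counts of single families moved more. Recentring on plasma proteins raised the higher genes from 1 to 4 in Slc22, 2 to 4 in Abcb, 1 to 3 in Abcc, 0 to 2 in Abcd and in Abcf, and 2 to 4 in Abcg, and cut the lower ones from 1 to 0 in Abcb and 2 to 1 in Abcd. At an adjusted p under 0.01 the higher genes went from 3 to 1 in Slco, 2 to 1 in Abca and in Abcb, and 1 to 0 in Abcc. Against a 1.5-fold change 0 stayed higher in Slco, Abca, Abcc and Abcg and 1 in Abcb, and 2 stayed lower in Slc22, 1 in Abcd and 0 in Abcb. Abca had 2 lower genes instead of 0 at a mean of at least 50 or after recentring on abundant genes, and Abcc 0 instead of 1 at that mean or without genes that lack reads in a group. Low means limit 14 members under 100 normalized counts. Leaving out single libraries was not run because the table holds no values of single libraries. No paired analysis was possible because the labels give the groups different numbers and the table has no columns of samples.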
